A study of Mus musculus with 6 samples.

Results

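MHC class I and interferon-response genes were followed in the ventral dentate gyrus of stressed and unstressed mice through 9 genes fixed by symbol. H2-K1, H2-D1 and B2m encode the class I molecule, Tap1 supplies it with peptides, Irf1 and Irf9 encode transcription factors of the interferon response, Ifih1 encodes a sensor of viral RNA, and Ifit3 and Bst2 encode antiviral effectors. All 9 were among the 24062 gene symbols counted, and all 9 passed the filter on low counts that left 14058 genes to test. RNA came from male C57black 6 mice, 3 libraries from animals given chronic restraint stress and 3 from controls that were not stressed. Restraint stress confines the animal repeatedly and acts as a psychological stressor. The labels give no age, no length of the stress and no genetic change in any group. They do not say how many animals went into a library, and the p-values measure the spread between these samples. The labels name the glial cystine/glutamate exchanger xCT and resilience to stress as the subject of the study.

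Class I molecules carry peptides from inside the cell to its surface, where CD8 T cells read them. The heavy chain is stable at the surface only with beta-2-microglobulin, and the TAP transporter moves peptides into the endoplasmic reticulum, where they are loaded. In the brain, class I genes are expressed by endothelial cells and microglia and, at lower levels, by neurons, where they are known for a part in synaptic plasticity. Interferons raise the levels of all of these genes. Type I interferon acts through a complex with STAT2 and IRF9 that binds the interferon-stimulated response element (ISRE), and interferon gamma acts through the gamma-activated site (GAS). Basal levels without infection are held up by tonic signalling through the same path.

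The promoter sequences of the genes are given here because the genes differ in which strict letter patterns of such elements they hold. Windows from RefSeq on GRCm38.p6, running from 250 bases before to 50 bases after each annotated start, were found for all 9 genes, with 2 starts each for H2-K1, Irf1 and Irf9. Both strands were searched for an ISRE-type motif, 2 copies of GAAA with 2 bases between them, a GAS-type motif, TTC and GAA with 3 bases between them, and a kB-type motif, GGGGA and TCCCC with 1 base between them, to which factors of the NF-kB family bind. The ISRE-type motif was found in 4 of the 9 genes (B2m, Ifih1, Ifit3 and Bst2), against 3.99% of all 27025 genes with such windows. The GAS-type motif was found in Irf1 and Bst2, against 9.55% of all genes, and the kB-type motif in H2-K1 and H2-D1, against 0.0555%. Tap1 and Irf9 held no match to these patterns. In the lines below, capitals mark the matches, sequences run 5′ to 3′ on the strand of the gene, and in Bst2 the GAS-type match overlaps the first of 2 overlapping ISRE-type matches.
H2-K1, chr17:34000423-34000483, minus strand: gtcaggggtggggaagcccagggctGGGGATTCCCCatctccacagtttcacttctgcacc
H2-D1, chr17:35262898-35262958, plus strand: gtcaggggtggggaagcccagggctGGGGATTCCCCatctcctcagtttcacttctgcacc
B2m, chr2:122147523-122147582, plus strand: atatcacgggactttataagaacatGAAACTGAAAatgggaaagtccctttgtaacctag
Irf1, chr11:53769899-53769957, plus strand: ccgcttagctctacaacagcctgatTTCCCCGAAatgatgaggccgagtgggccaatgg
Ifih1, chr2:62646206-62646233, minus strand: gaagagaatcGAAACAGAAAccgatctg
Ifit3, chr19:34583348-34583441, plus strand: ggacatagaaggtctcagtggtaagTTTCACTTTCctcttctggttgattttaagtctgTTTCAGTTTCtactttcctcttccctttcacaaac
Bst2, chr8:71537562-71537633, minus strand: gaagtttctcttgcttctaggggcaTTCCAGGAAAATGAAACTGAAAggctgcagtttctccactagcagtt

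The stretches of H2-K1 and H2-D1 were the same but for 1 of 61 bases, although the genes lie apart on the chromosome and on opposite strands. The match in Ifih1 lay after the start, at positions 32 to 41 counted from the start as 0, while those in B2m, Ifit3 and Bst2 lay before it. Both stretches also hold tttcacttc, part of the interferon response sequence long known from class I promoters, which the strict ISRE-type pattern does not match. A match describes the letters of the window and does not show that a factor binds there, and a window with no match may still hold a variant of an element.

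**Figure D1:**
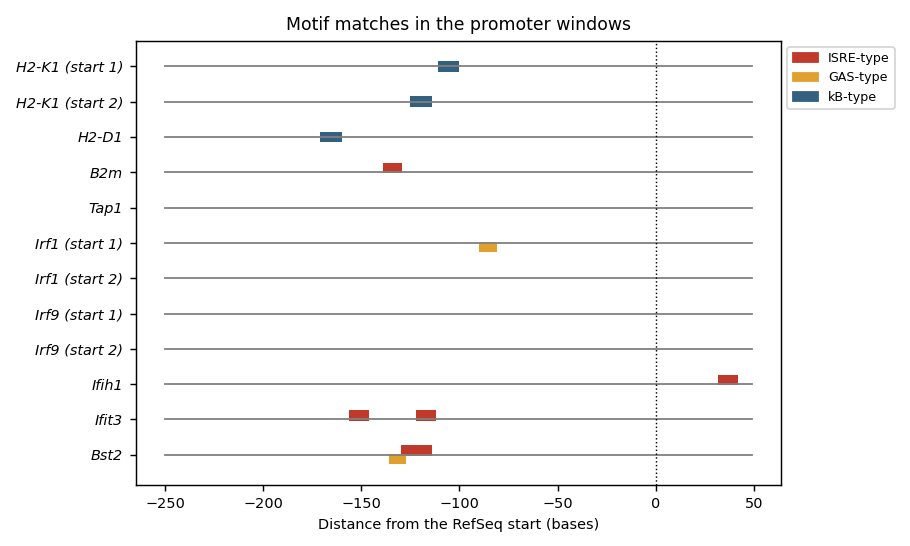
Positions of motif matches in the RefSeq promoter windows of the 9 genes, with the distance from the annotated start in bases on the horizontal axis and 1 line per window. Coloured boxes are ISRE-type, GAS-type and kB-type matches, and 4 genes hold an ISRE-type match.

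Libraries held 8575540 to 9626686 gene counts in stress and 8305753 to 10107953 in controls, and levels are given as CPM, the usual scaling of counts by the total of gene counts in the library. Stress replicate 1 stood apart. Its 13 choroid plexus markers summed to 4886 CPM, where the other 5 libraries had 31.9 to 37.1 CPM, its striatal neuron markers to 951 CPM, against 199 to 218 CPM in the other 5 libraries, and its dentate granule neuron markers to 795 CPM, against 1302 to 1665 CPM. The granule neuron genes that define the dissected tissue were present in every library, with Prox1 at 47.5 CPM in stress replicate 1 and at 93.1 to 132 CPM in the other 5. For some of the values given below, the value without stress replicate 1 stands beside. A value given alone may also depend on that library.

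None of the 9 genes passed an adjusted p of 0.05 for stress against control in edgeR's quasi-likelihood test over all 14058 genes, in which 4 genes passed, or 0.0285%. None passed by DESeq2 or limma-voom either. At an unadjusted p under 0.05 the count was 2 of 9, Ifih1 and H2-D1, both lower in stress, against 8.71% of all tested genes in either direction, 4.85% on the lower side and 3.86% on the higher side. The same 2 genes were those whose stress and control libraries did not overlap, against 14.7% of all tested genes, 9.03% lower and 5.68% higher in stress. The median log2 fold change of the 9 was -0.12, against 0.0038 over all tested genes, with 7 of 9 negative, against 49.0% of all. This lean rested on control replicate 2: without it the median was 0.042 and 4 of 9 were negative. The fold changes and adjusted p-values given for single genes are edgeR's, and the SE and 95% interval beside each are limma-voom's.

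**Figure D2:**
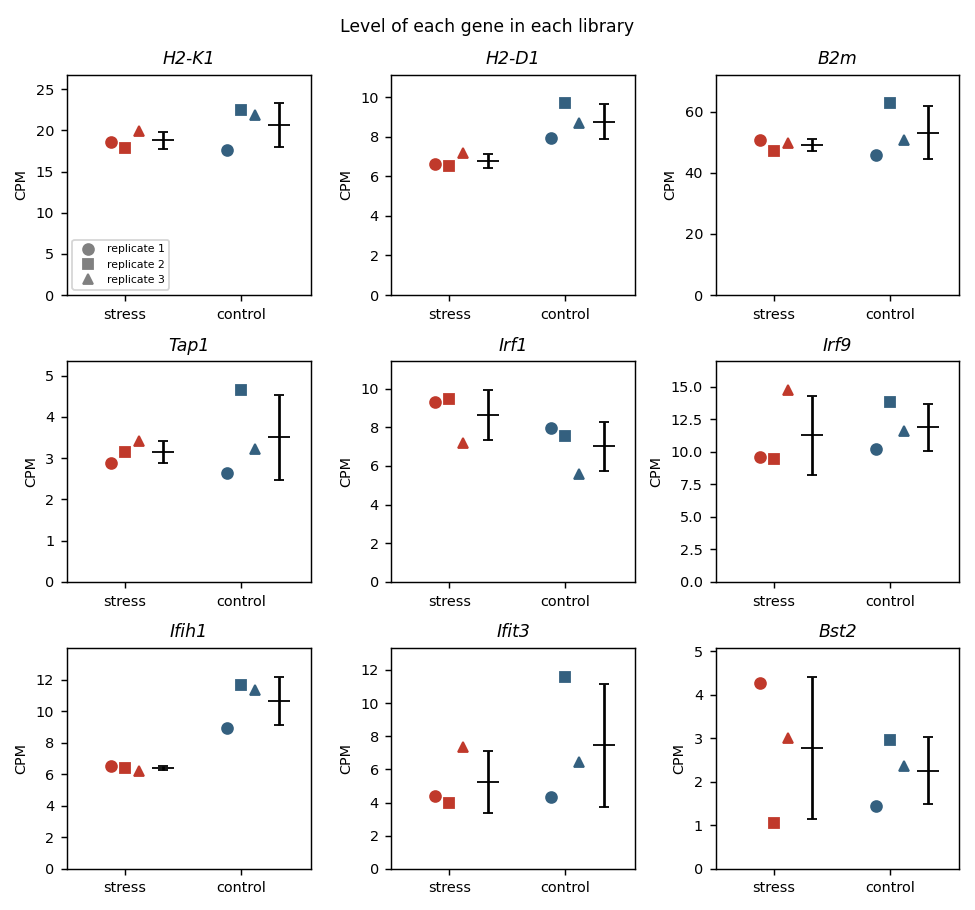
CPM of each of the 9 genes in the 3 stress and 3 control libraries, with a marker shape for each replicate number, the bar at the mean and whiskers of 1 SD. The groups are separate for Ifih1 and H2-D1 and overlap for the other 7, and control replicate 2 is the highest library for 6 of the genes.

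Per kilobase of exon the genes spanned more than an order of magnitude. Taking the merged exons of protein-coding transcripts in GENCODE M21 as the length, B2m was highest at 59.4 ± 7.0 CPM per kilobase (SD over 6 libraries), followed by H2-K1 at 11.9 ± 1.25. The ranges of these genes did not overlap with each other or with those of the genes below them. Irf9, H2-D1, Ifit3 and Bst2 followed at 3.73 ± 0.727, 3.70 ± 0.593, 3.64 ± 1.66 and 3.18 ± 1.48 CPM per kilobase, then Irf1 at 2.35 ± 0.433, Ifih1 at 1.56 ± 0.461 and Tap1 at 1.13 ± 0.237. Each of these 7 overlapped in range with its neighbours in the order, so adjacent genes in the order are not resolved beyond the spread of the libraries. Genes further apart can be: the lowest values of Irf9, at 3.04, and H2-D1, at 3.11, lay above the highest of Irf1, at 2.83, and so above all of Ifih1 and Tap1. These lengths are an approximation, because the sources used here do not name the annotation behind the counts.

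The class I heavy chain genes lie on chromosome 17 of GRCm38, H2-K1 from 33996017 to 34000347 and H2-D1 from 35262730 to 35267499. H2-D1 was at 6.63, 6.53 and 7.17 CPM in stress replicates 1, 2 and 3, against 7.95, 9.70 and 8.68 CPM in control replicates 1, 2 and 3. Every stress library lay below every control. H2-D1 differed by a log2 fold change of -0.36 (SE 0.15), and its adjusted p was 0.541 by edgeR's quasi-likelihood test. The fold change lay between -0.42 and -0.28 with any 1 library left out. H2-K1, whose product presents peptides in the same way, was at 18.6, 17.8 and 19.9 CPM in stress, against 17.6, 22.5 and 21.9 CPM in controls. Control replicate 1 was the lowest of all 6, so the groups overlapped. H2-K1 differed by a log2 fold change of -0.12 (SE 0.12), and its adjusted p was 0.841 by the same edgeR test. Leaving out 1 library moved it to -0.22, without control replicate 1, or to -0.053, without control replicate 2.

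Class I genes form a family of near copies, and reads can be shared between them. Of the 2003 windows of 100 bases, the length of the reads, in the longest protein-coding H2-D1 transcript, 93 or 4.64% occurred unchanged in transcripts of other genes, 85 of them in H2-Q1. None of the 1520 windows of H2-K1 was shared. H2-Q1 and H2-Q2, heavy chain genes of the Qa region that follow H2-D1 on chromosome 17 at 35320405 to 35325099 and 35342242 to 35346762, did not pass the filter on low counts. H2-Q2 is named after its values were seen, and the counts of H2-Q1 had also been seen. H2-Q2 had 1, 0 and 0 counts in stress replicates 1, 2 and 3, against 13, 6 and 19 in control replicates 1, 2 and 3. H2-Q1 had 0, 0 and 1 counts in stress replicates 1, 2 and 3, against 5, 3 and 13 in control replicates 1, 2 and 3. For both genes every stress library lay below every control. Of the 1925 windows of H2-Q1, 106 also occurred in transcripts of H2-Q2, so the counts of these genes may not be independent. None of the 1163 windows of the longest protein-coding H2-Q2 transcript was shared. The ratio of summed counts, scaled by library totals, was 0.0265 for H2-Q2 (95% exact interval 0.000654 to 0.157) and 0.0479 for H2-Q1 (0.00116 to 0.298), and these intervals cover counting error only. With no filter on low counts the adjusted p of H2-Q2 was 0.149 by edgeR's quasi-likelihood test, and DESeq2 gave 0.0489. The next gene, H2-Q4, at 28.1, 41.3 and 37.6 CPM in stress and 40.3, 44.0 and 38.1 CPM in controls, overlapped between the groups. Its log2 fold change was -0.18 (SE 0.13), and -0.047 without stress replicate 1, its lowest library.

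B2m, the invariant light chain on chromosome 2 from 122147686 to 122153083, was the most abundant of the genes. It was at 50.7, 47.0 and 49.8 CPM in stress, against 45.9, 62.7 and 50.7 CPM in controls. The stress libraries lay within the range of the controls. The fold change of B2m was -0.10 on the log2 scale (SE 0.11), with an edgeR adjusted p of 0.870 and a 95% interval by limma-voom from -0.35 to 0.17. Leaving out control replicate 2 gave 0.042. Tap1, a subunit of the peptide transporter on chromosome 17 from 34187553 to 34197225, was at 2.89, 3.15 and 3.43 CPM in stress, against 2.65, 4.65 and 3.22 CPM in controls. The groups overlapped, with a log2 fold change of -0.15 (SE 0.25), an interval from -0.70 to 0.46, and 0.12 without control replicate 2. Psmb9, an immunoproteasome gene on the opposite strand, overlaps 212 exonic bases of Tap1, and the sources used here do not name the strand setting of the counting.

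The list of 26 class I heavy chains and related molecules had 8 members that passed the filter, and 8 others had no count in any library. None passed the test in either direction, 6 of the 8 were negative, and the median log2 fold change was -0.13. The list's summed level was 93.6 to 101 CPM in stress and 104 to 119 CPM in controls, so the groups did not overlap. That sum includes H2-D1, H2-Q1 and H2-Q2, whose separate groups are given above. Without these genes the summed levels of the groups overlapped. Of the 8 tested genes only H2-D1 had separate groups, against 14.7% of all tested genes. Of the 20 genes of peptide supply and loading, which include the immunoproteasome subunits, the chaperones of the loading complex and the class I regulator Nlrc5, 18 were tested and none passed. 9 were positive and 9 negative, with a median of -0.0056. Without stress replicate 1, 12 of the 18 were negative and the median was -0.046. Without control replicate 2, 3 of the 18 were negative and the median was 0.050. The members with the smallest p outside the 9 genes were Erap1, which trims peptides, at -0.17 (SE 0.15) and Tap2, the partner of Tap1, at 0.18 (SE 0.22). Single libraries moved both. Erap1 was -0.30 without stress replicate 1 and -0.036 without control replicate 2, and Tap2 took values from 0.056 to 0.37, with 0.10 when stress replicate 1 was left out, the ends coming from leaving out stress replicates 3 and 2.

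Neither transcription factor gene had groups that were separate. Irf1, on chromosome 11 from 53770014 to 53778374, encodes a factor that interferon gamma induces and that drives class I genes. It was at 9.30, 9.45 and 7.17 CPM in stress, against 7.95, 7.52 and 5.57 CPM in controls. Stress replicates 1 and 2 were above all controls and stress replicate 3 was within them, so the groups overlapped. On the log2 scale Irf1 differed by 0.31 (SE 0.19), between 0.18 and 0.44 with any 1 library left out, and its adjusted p was 0.724 by edgeR's quasi-likelihood test. Irf9, the DNA-binding part of the type I interferon complex on chromosome 14 from 55603571 to 55610030, was at 9.62, 9.45 and 14.8 CPM in stress, against 10.2, 13.9 and 11.6 CPM in controls. Its highest and lowest libraries were both stress libraries. Its log2 fold change was -0.063 (SE 0.20, adjusted p 0.956 by the same edgeR test), and it took either sign when single libraries were left out, from -0.30 to 0.066. Leaving out stress replicate 1 gave 0.033. Irf9 shares 123 exonic bases with Rnf31 on the same strand.

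Upstream of these factors, 19 of the 21 interferon genes on the list had no count in any library, and the other two, Ifna12 and Ifnz, had 1 count each. A count of 0 allows up to 3 counts, or 0.297 to 0.361 CPM per library. Of the 18 genes for interferon receptors and their JAK-STAT relay, 15 were tested, none passed, and the median was 0.0096, with 8 positive and 7 negative. That median was 0.032 without stress replicate 1. Stat2, which encodes the partner of IRF9, did not pass, at a log2 fold change of -0.18 (SE 0.12), and -0.091 without control replicate 1. Of the 12 IRF family genes 10 were tested and none passed, with a median of 0.058. Irf7, which amplifies the type I response, was at 1.18, 1.17 and 1.45 CPM in stress and 1.20, 4.16 and 1.5 CPM in controls. Its log2 fold change of -0.85 (SE 0.48) was -0.080 without control replicate 2, the library that held the highest value.

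Ifih1 had the largest difference of the 9 genes. It encodes MDA5, a helicase that binds long double-stranded RNA in the cytoplasm and signals through MAVS, and lies on chromosome 2 from 62595798 to 62646255. It was at 6.52, 6.41 and 6.23 CPM in stress, against 8.91, 11.7 and 11.4 CPM in controls, and the group means were 6.39 ± 0.146 and 10.6 ± 1.51 CPM (SD, n = 3 each). The stress libraries were nearly level with each other and all lay below the lowest control. Ifih1 had a log2 fold change of -0.72 (SE 0.16), a level in stress of 0.606 times that in controls, with a limma-voom 95% interval from -1.08 to -0.36. The adjusted p was 0.227 by edgeR's quasi-likelihood test, and over all alternatives it ran from 0.0982, without stress replicate 1, to 0.741, without control replicate 3, so it did not pass in any. The log2 fold change stayed between -0.83 and -0.65 with any 1 library left out, and was -0.75 without stress replicate 1. No window of 100 bases in the Ifih1 transcript occurred in another gene, and no gene of the annotation overlaps it.

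**Figure D3:**
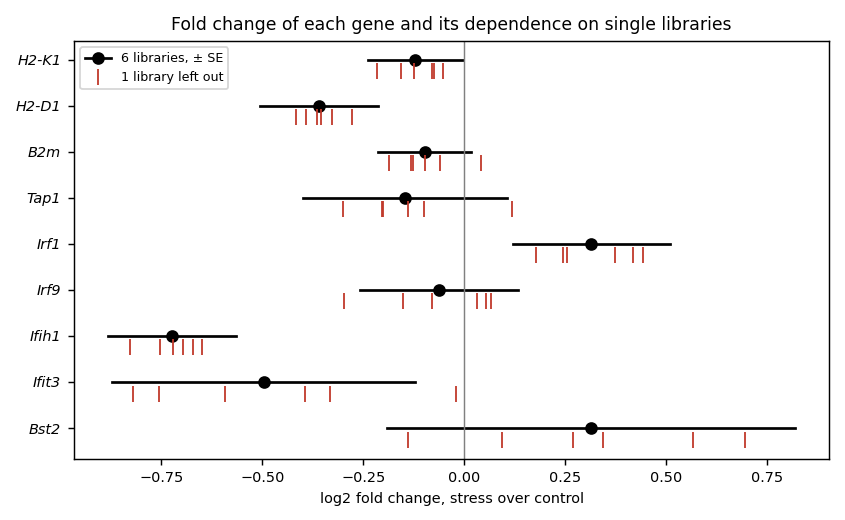
Log2 fold change of stress over control for each of the 9 genes (black point, with a line of 1 SE to either side) and the values with 1 library left out (red ticks). Ifih1 stays between -0.83 and -0.65 throughout, while B2m, Tap1, Irf9 and Bst2 take either sign.

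Among 19 nucleic acid sensors and adaptors, 16 were tested and none passed. At an unadjusted p under 0.05 there were 2 of 16 on the higher side and 2 of 16 on the lower, Ifih1 included, against 3.86% and 4.85% of all tested genes. The log2 fold change was negative for 5 of the 16, against 49.0% of all, and the median was 0.10. That median was 0.035 without stress replicate 1, 0.017 without control replicate 3 and 0.24 without control replicate 2. Tlr3, the endosomal receptor for double-stranded RNA, was at 14.1, 14.8 and 14.3 CPM in stress, against 19.5, 17.8 and 16.3 CPM in controls. Every stress library lay below every control, with a log2 fold change of -0.29 (SE 0.11) and an adjusted p of 0.526 by edgeR's quasi-likelihood test. Ikbke, a kinase that activates interferon regulatory factors, was at 2.03, 2.33 and 1.56 CPM in stress, against 0.843, 0.890 and 1.39 CPM in controls, and the adaptor gene Myd88 was at 4.70, 3.96 and 4.16 CPM in stress, against 3.37, 3.07 and 2.47 CPM in controls. Both were higher in every stress library than in any control. Ikbke rested on few counts, 19, 20 and 15 in stress and 7, 9 and 13 in controls. It passed the filter on low counts through its stress libraries. Of the 16 tested, 3 had separate groups on the higher side and 2 on the lower, against 5.68% and 9.03% of all tested genes. Ikbke had a log2 fold change of 0.92 (SE 0.32) with an adjusted p of 0.511, and Myd88 one of 0.54 (SE 0.21) with an adjusted p of 0.539, by the same edgeR test.

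Ifit3 and Bst2 varied most between libraries of 1 group. Ifit3, on chromosome 19 from 34583531 to 34588731, encodes a protein that partners IFIT1 in binding viral RNA, as known for human cells. It was at 4.38, 3.96 and 7.38 CPM in stress, against 4.33, 11.6 and 6.43 CPM in controls. Control replicate 2 was the highest library and the groups overlapped. For Ifit3 the fold change of -0.50 on the log2 scale (SE 0.38) had an adjusted p of 0.781 by edgeR's quasi-likelihood test, and was -0.82 without stress replicate 3 and -0.021 without control replicate 2. The counts of Ifit3 are uncertain, since 521 of its 1646 windows of 100 bases, or 31.65%, also occur in its copy Ifit3b, which has no row of its own among the symbols. Bst2, on chromosome 8 from 71534255 to 71537456, encodes tetherin, which holds budding virus at the cell membrane. It was at 4.28, 1.05 and 3.01 CPM in stress, against 1.44, 2.97 and 2.36 CPM in controls. The highest and the lowest library were both stress libraries. The lowest rested on 9 counts, for which the 95% Poisson interval is 4.12 to 17.1 counts. The fold change of Bst2 was 0.31 on the log2 scale (SE 0.50), with an edgeR adjusted p of 0.901 and a limma-voom interval from -0.998 to 1.30. It was -0.14 without stress replicate 1, the library with the choroid plexus markers, and 0.69 without stress replicate 2.

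Of 59 interferon-induced effector genes, 41 were tested. None passed in either direction, 33 were negative and 8 positive, against 49.0% negative of all tested genes, and the median log2 fold change was -0.21. This lean rested on control replicate 2. Without that library 20 of 41 were negative and the median was 0.011. 27 of the 41 were highest in control replicate 2, as were 6 of the 9 genes above, against 14.8% of all tested genes. Over all tested genes this share ran by library from 12.2%, for stress replicate 2, to 21.7%, for stress replicate 1. Relative to the mean of the controls, the median log2 level of the 41 was -0.16, -0.30 and -0.06 in the 3 stress libraries, in order of replicate number, and -0.26, 0.30 and -0.09 in the 3 controls. Control replicate 2 stood alone above the others. Gbp3, a guanylate-binding protein gene, was at 3.31, 4.31 and 4.16 CPM in stress, against 3.37, 10.6 and 6.32 CPM in controls. Ifitm3, which blocks viral entry, was at 4.70, 4.43 and 4.05 CPM in stress, against 4.70, 10.4 and 5.57 CPM in controls. The log2 fold change of Gbp3 was -0.78 (SE 0.39), and -0.29 without control replicate 2. That of Ifitm3 was -0.64 (SE 0.31), and -0.21 without that library. Cmpk2, a mitochondrial nucleotide kinase gene, was at 28.7, 28.2 and 25.5 CPM in stress, against 30.5, 34.1 and 33.3 CPM in controls. Its groups did not overlap, as for 3 of the 41 on the lower side, against 9.03% of all tested genes. The log2 fold change of Cmpk2 was -0.24 (SE 0.09), with an adjusted p of 0.536 by edgeR's quasi-likelihood test. It was -0.20 without control replicate 2. Ifi27 was at 32.4, 16.7 and 22.4 CPM in stress, against 12.3, 17.9 and 16.3 CPM in controls, with its highest value in stress replicate 1 and a log2 fold change of 0.34 without that library, against 0.64 (SE 0.25) with it.

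**Figure D4:**
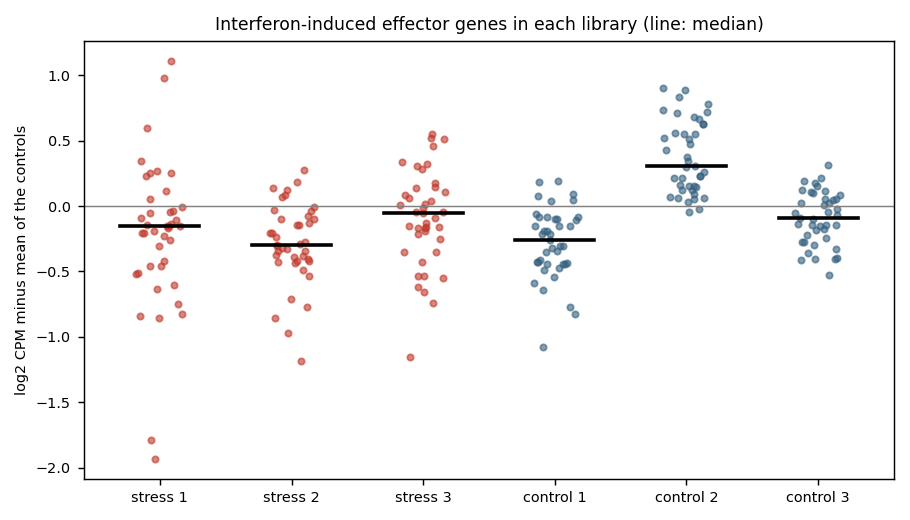
Log2 CPM of the 41 tested interferon-induced effector genes in each library, relative to the mean of the 3 controls (points are genes, lines are medians). Control replicate 2 lies highest, with a median of 0.30, and the other 5 libraries have medians from -0.30 to -0.06.

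In bulk tissue, fewer cells of a type and less RNA per cell cannot be told apart, so markers of the cells in which these genes are known to be high are set beside them. The 15 microglia markers summed to 566, 574 and 724 CPM in stress replicates 1, 2 and 3 and to 510, 713 and 536 CPM in control replicates 1, 2 and 3, with all 15 tested and none passing. The 14 endothelial markers summed to 387 to 438 CPM in stress and 415 to 478 CPM in controls. Both lists were higher in control replicate 2 than in the other two controls, and the groups overlapped for both. The 10 markers of border and infiltrating myeloid cells summed to 11.4, 12.2 and 16.6 CPM in stress and to 19.7, 24.4 and 23.6 CPM in controls. Here the groups did not overlap, and all 10 had counts. The 4 that were tested were all lower in stress, with a median log2 fold change of -0.83. Of these, Lyve1 passed the filter on low counts only through its controls. The markers that did not pass the filter overlapped between the groups in their sum. With no filter on low counts, 7 of the 10 were lower in stress. The sum of the 12 astrocyte markers did not overlap either, at 6840 to 7926 CPM in stress and 8004 to 9006 CPM in controls. Most of it was Slc1a2, at 4587 to 5448 CPM in stress and 5448 to 6147 CPM in controls. Of the 12, 5 had separate groups, all lower in stress, against 9.03% of all tested genes. T and NK cell markers summed to at most 1.07 CPM in 5 libraries and to 5.56 CPM in stress replicate 1, all of it from Cd4. The part of these cell types in the differences of the 9 genes was not tested.

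**Figure D5:**
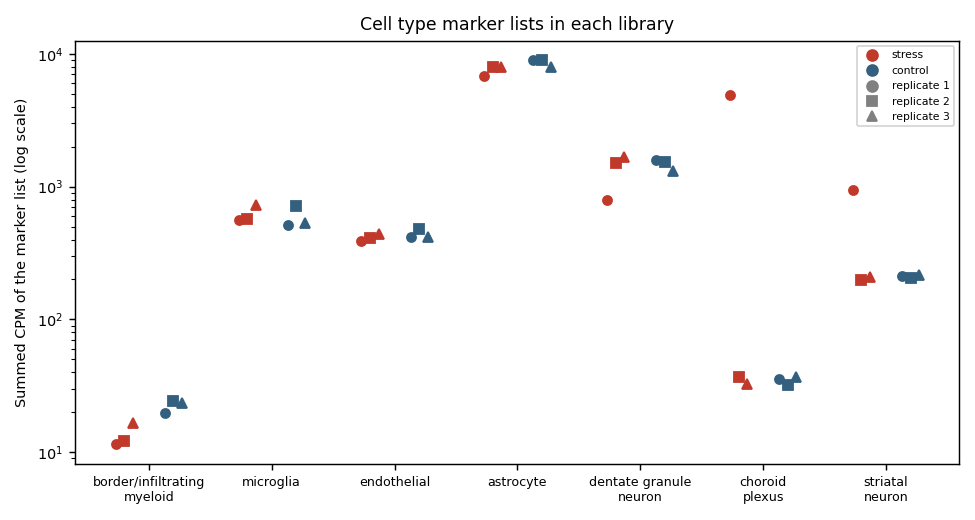
Summed CPM of 7 marker lists in each stress and control library, on a log axis, with a marker shape for each replicate number. Border and infiltrating myeloid markers are lower in all 3 stress libraries, and choroid plexus markers reach 4886 CPM in stress replicate 1.

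The 9 genes followed a common pattern across libraries only in part. The mean of their standardized log2 CPM was highest in control replicate 2, at 1.18, and lowest in stress replicate 2, at -0.72, with control replicate 1 at -0.51. Stress replicates 1 and 3 and control replicate 3 were between -0.18 and 0.14. Irf1 went against the others, being highest in stress replicate 2. Among 11755 other genes with a mean of at least 5 CPM, those most like the mean profile over the 6 libraries included Il13ra1, Zfp113, Cdc123 and Atraid, with Pearson's r from 0.963 to 0.986. These values describe a ranking over 6 libraries that share their control and stress groups, and 10 of the genes exceeded 0.95. Il13ra1, a receptor subunit for interleukin 13, was at 8.45, 8.05 and 9.25 CPM in stress, against 8.43, 12.2 and 9.33 CPM in controls. It was highest in control replicate 2 and did not pass for stress against control.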

How the data were processed

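Total RNA from 6 libraries (3 stress, 3 control) was sequenced as single-end reads after removal of ribosomal RNA, per the labels. The deposited files hold raw counts per gene symbol, 1 file per library. Tools listed without roles in the submitters' processing notes are edgeR 3.12.0, HTSeq 0.6.1, TopHat2 2.0.9, Trimmomatic 0.33 and FastQC 0.11.3, with the builds GRCm38 and mm10. Neither the annotation nor the strand setting is given in the sources used here. Reads assigned to no gene were 59.5% to 63.1% of those listed and ambiguous reads 0.211% to 0.253%, and both were left out.

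Counts were filtered with filterByExpr, scaled by TMM and tested by edgeR 4.0.16 (quasi-likelihood F-test, two-sided, group as the single term) in R 4.3.3, with Benjamini-Hochberg adjustment over all tested genes and a threshold of 0.05. SE and 95% intervals came from limma 3.58.1 (voom). CPM are counts over the sum of gene counts, without TMM. On simulated counts over the 14058 genes, changes were given only to genes above a minimum mean count. Pooled over repeated draws, the test called 108 of 207 genes with a 1.5-fold change, or 52.2%. It called 179 of 198 genes with a 2-fold change, or 90.4%, and 44 of 41574 unchanged genes, or 0.106%. The simulation held no library that stood apart as stress replicate 1 does. Whether these shares hold for genes with few counts, such as Bst2 and Tap1, was not tested. Alternatives were other scalings and filters, DESeq2 1.42.0, limma-voom, a robust fit, the replicate number as a block, and each library left out. No 2 libraries agreed within sampling noise (lowest chi-square per degree of freedom 2.97).

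Positions are from GENCODE M21 on GRCm38, where 94.4% of symbols matched 1 gene. The genes and lists were chosen with earlier results of these data known. Named were the 9 genes, up to 4 other genes with the smallest p of each pathway list, up to 3 of the highest of each marker list, the 5 genes most like the mean profile, and copies that may share reads (H2-Q1, Ifit3b). Gbp3, Ifitm3, Cmpk2 and Ifi27 came from this rule. H2-Q2, Prox1 and the ligands with a count were named after their values were seen. H2-Q1 falls under the rule on shared reads, but its counts had also been seen when it was taken up. Some genes that this rule names are not reported here.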

Additional observations from a re-analysis of the deposited data

How the results depend on the processing

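None of the 9 genes passed under any alternative. With other scalings, filters, tests or the block, all 81 of their fold changes kept their sign. With libraries left out, B2m ran from -0.19 to 0.042, Tap1 from -0.30 to 0.12, Irf9 from -0.30 to 0.066 and Bst2 from -0.14 to 0.69, and the other 5 genes kept their sign. Over all genes, 4 passed, against 106 by DESeq2 and 1 by limma-voom, and 0 to 41 with libraries left out (41 without stress replicate 1, 28 without stress replicate 2, 0 without any other). The number of the 9 genes whose groups did not overlap was 2 with TMM-scaled CPM and 2 to 4 with libraries left out, 4 without stress replicate 3 or without control replicate 1, where 22.3% and 24.7% of all tested genes did not overlap. Of the pathway genes, 1 (H2-Q2) passed by DESeq2 and 0 otherwise, and 88 of 90 list medians moved by less than the spread between libraries. The exceptions, both without control replicate 2, were the effectors at 0.011 and the sensors at 0.24. The cause was not tested. With the replicate number as a block 0 genes passed. Each gene's log2 CPM was taken as its deviation from the mean of its group. These deviations correlated between same-numbered libraries at 0.136, -0.010 and 0.039. The first was the highest of all pairs, but control replicates 2 and 3 did not correlate best with their own number. Whether the numbers pair the samples cannot be told from so few libraries. Depth limits Bst2 and Tap1, which rest on 9 to 47 counts per library.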

Other observations

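The 4 tested markers of border macrophages, which line the vessels and meninges of the brain, were lower in stress without passing the test. Their levels were not given above. Mrc1, the mannose receptor gene, was at 5.56, 5.36 and 7.79 CPM in stress, against 9.99, 12.2 and 11.04 CPM in controls, with a log2 fold change of -0.81 (SE 0.18) and an adjusted p of 0.250 by edgeR's quasi-likelihood test. The coagulation factor gene F13a1 was at 2.35, 2.80 and 2.80 CPM in stress, against 3.73, 5.05 and 5.57 CPM in controls, with a log2 fold change of -0.84 (SE 0.23). Cd163, a scavenger receptor gene, was at 1.18, 1.87 and 1.97 CPM in stress, against 3.25, 3.66 and 2.57 CPM in controls, with a log2 fold change of -0.90 (SE 0.29). With any 1 library left out the log2 fold changes of these 3 genes ran from -1.04 to -0.71. The other tested marker, Lyve1, was at 0.749, 1.05 and 0.727 CPM in stress, against 1.08, 1.09 and 2.36 CPM in controls, with a log2 fold change of -0.83 (SE 0.41) that was -0.35 without control replicate 3. Lyve1 passed the filter on low counts only through its controls, so its separate groups followed from the filter. For the other 3 genes the groups did not overlap either, against 9.03% of all tested genes on the lower side. With no filter on low counts, 7 of all 10 markers on the list were lower in stress.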
